A study of Mus musculus with 31 samples.

Results

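The genes described here are 58 X-linked mouse genes whose transcripts could be split between the parental X chromosomes and that start at or beyond 120 Mb on the X of the mm10 build. They were taken from the 205 genes of the authors' allele table: 67 of these started in that interval, and 9 of them (Kdm5c, Mid1, Sh3kbp1, Acsl4, Col4a5, Col4a6, Smc1a, Rbbp7 and Kantr) were left out by name. The first of the 58 was Srpx2, at 133.9 Mb, and the last was Hccs, at 169.3 Mb, so no gene between 120 and 133.9 Mb entered. Just before the boundary lay Brwd3 (108.7 Mb) and Hmgn5 (109.0 Mb), with mus shares in WT of 4.26% and 3.53%, and the first genes inside were Srpx2 and Armcx4 (134.7 Mb), with 4.72% and 1.37%.

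RNA was sequenced from female dermal fibroblasts of a CAST/Ei by 129/Sv/Jae hybrid, grown in ordinary fibroblast medium without a treatment. WT cells carried no deletion. The XaWT XiΔXist cells had lost the gene Xist from the inactive X after inactivation was complete, while their active X kept Xist. These deleted cells came as 2 lines, called line 1 and line 2 here, and each of the 3 groups had 2 libraries (n = 2) that the protocol calls biological replicates. Each line is a single line of cells, so what the deletion did and what else set a line apart from WT cannot be told apart. The study also mapped accessible chromatin in WT, both lines and WT embryonic fibroblasts, and the remodeler BRG1 in WT and line 1. These maps enter here as the authors' lists of classified sites, which belong to no single sample.

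In female mammals one X of each cell is silenced during development and then kept silent through cell division. Xist, a long noncoding RNA made from the inactive X, coats that chromosome, recruits repressors such as the Polycomb complexes and keeps others away, and a minority of genes called escapees are still read from it. Once silencing is established, DNA methylation of CpG-rich promoters and histone marks also hold genes of the inactive X silent. In cells of a hybrid in which every cell silences the same X, the share of reads from that X measures how silent a gene is. Most reads of the 58 genes carried cas bases, those of CAST/Ei, and the others are called mus reads, taken here as the 129 allele. The mus share of a gene is its mus reads over all its allele reads.

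Xist itself had 633 and 429 CPM (read counts scaled to library size) in the WT libraries and at most 1.08 in any library of the deleted lines. Libraries held 3.81 to 7.07 M exon counts (M, mega), and 3334 to 6570 allele reads on the 58 genes, and replicate 1 was the shallower in every group. Fibroblast markers summed to 4816 to 5901 CPM in WT, 4086 to 6575 in line 1 and 4732 to 5939 in line 2, and Ptprc, Pecam1 and Cdh1, which mark leukocytes, endothelium and epithelium, were below 0.5 CPM in every library. The 5 leukocyte markers, of which 3 passed the filter on low counts, summed to 17.4 to 17.6 CPM for WT, 26.9 to 28.7 for line 1 and 24.7 to 27.2 for line 2. The 4 endothelial markers, of which 2 passed, summed to 7.33 to 8.32, 2.43 to 3.28 and 4.79 to 6.54 in the same order. For the 6 keratinocyte markers, of which 1 passed, the sums were 6.88 to 8.59, 8.73 to 9.19 and 7.90 to 10.4. Of 5 melanocyte markers 2 passed, and the sum of all 5 ranged over 16.6 to 21.7 CPM for WT, 60.1 to 63.8 for line 1 and 12.7 to 15.5 for line 2, with Dct at 0 in every library. Whether these differences have a part in the results of either line below was not tested.

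Reads summed over the 58 genes came mostly from the cas allele in WT and in both deleted lines. Summed over them, mus reads were 3.96% and 3.91% of allele reads in the WT libraries, 3.78% and 4.25% in line 1, and 3.34% and 4.19% in line 2. The WT mean was 3.93% ± 0.034, that of line 1 4.01% ± 0.331 and that of line 2 3.77% ± 0.606 (SD, n = 2), and both lines had 1 library below and 1 above the WT pair. The differences were therefore smaller than the spread within either line. With 2 libraries against 2 an exact permutation test cannot go below p = 0.333, so the sums were given no test.

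No gene of the 58 passed the test of a changed mus share in either line. In edgeR's quasi-likelihood test of mus against cas reads, which needed at least 10 allele reads a gene in every group and which all 58 genes met, 0 of 58 had an adjusted p under 0.05 in line 1, where 1.46% of the 205 genes did. In line 2 it was also 0 of 58, against 0% of the table, and between line 2 and line 1 0 of 58, against 0.976%. Before adjustment the counts under 0.05 were 0, 1 and 0 in the same order. The 1 gene was Mum1l1 (Pwwp3b in RefSeq), which had 2 mus reads in each line 2 library and 0 in the others, with an edgeR p of 0.0325 that became 1 on adjustment. In the rest of the table the calls in line 1 were Msn, Sh3kbp1 and Med14, and Sh3kbp1 starts in the same interval but was left out of the 58.

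What a missing call can bound depends on reads per gene. The median gene had 117 allele reads in WT, 133 in line 1 and 125 in line 2, with a range from 28 reads to 849 over the groups. Pooling a group's libraries, the mus share was under 5% for 50 genes of WT, 50 of line 1 and 51 of line 2. The upper end of the exact 95% Clopper-Pearson interval, which covers counting error only, was under 10% for 42 genes in WT, 44 in line 1 and 49 in line 2, and under 20% for 55, 54 and 55. For each of the 55 genes classed Monoallelic the interval ended well below the share that equal reads from both alleles would give. A gain of a few percentage points was not detectable at this depth for most single genes.

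**Figure D1:**
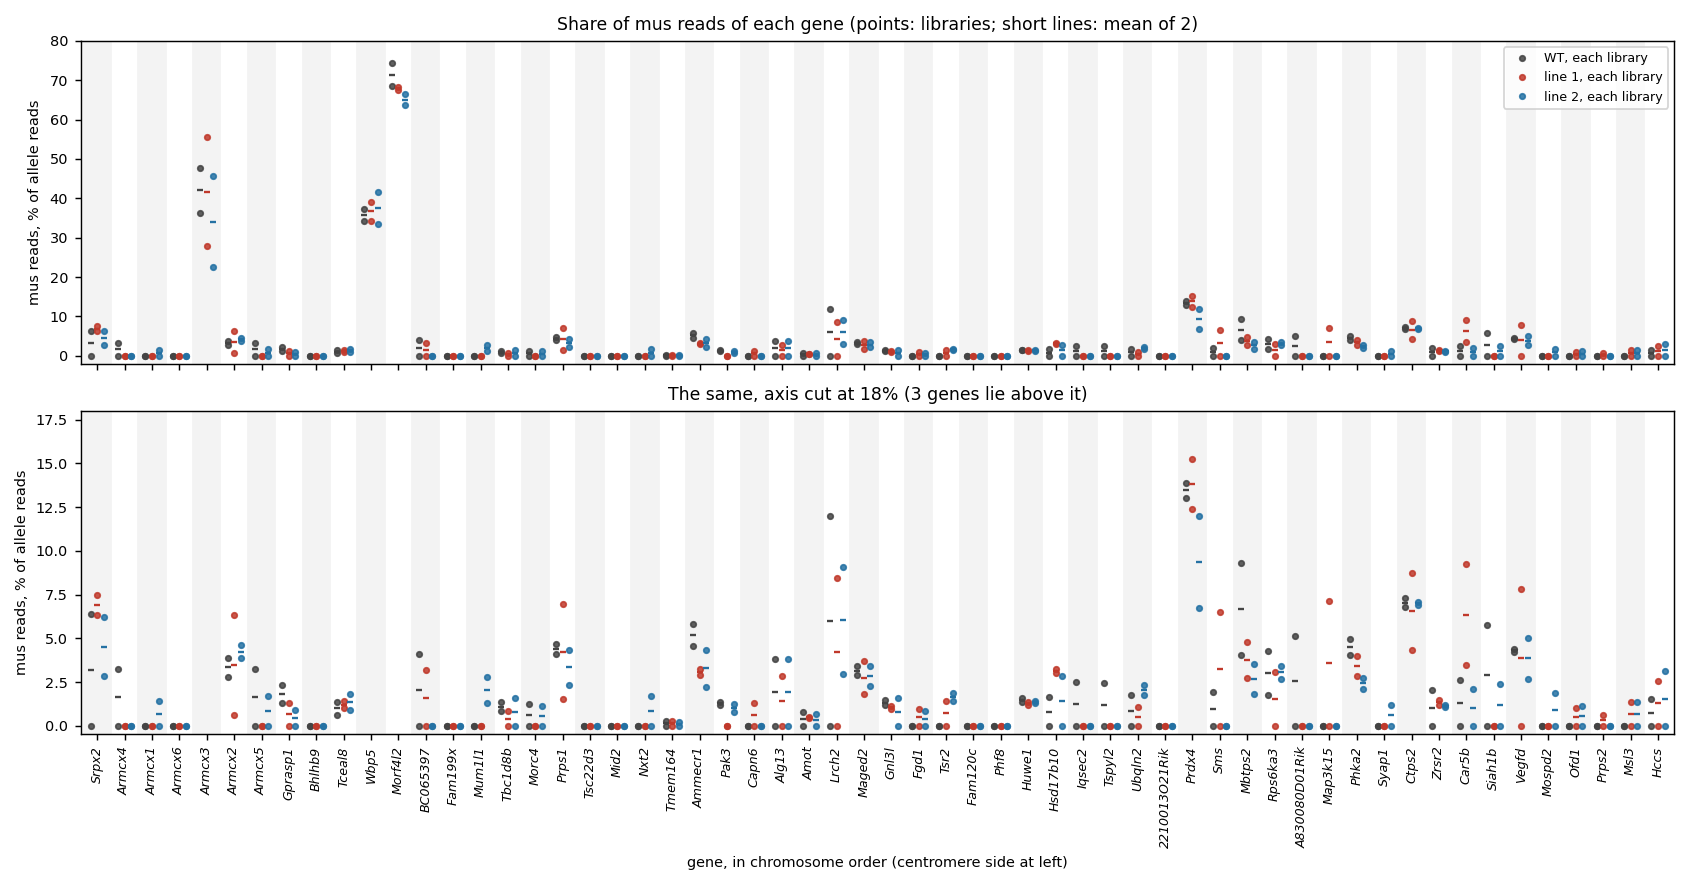
Mus reads as a percentage of allele reads for each of the 58 genes in chromosome order, with 1 point per library and a short line at each group's mean; the lower panel repeats the plot with its axis ending at 18%. The 3 genes above 18% (Armcx3, Wbp5, Morf4l2) were so in every group, and points of WT and both lines overlap for most of the others.

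The authors classed 55 of the 58 genes Monoallelic and 3 Biallelic, and gave the same class in each of their class columns. The Biallelic genes lie within 2 Mb of each other at the start of the interval. Morf4l2, a relative of MRG15 in the NuA4 histone acetyltransferase complex, had a mus share of 74.3% and 68.4% in WT, 68.2% and 67.6% for line 1, and 63.7% and 66.4% for line 2. It had more mus than cas reads in all 6 libraries; the only other gene of the 58 with more in any library was Armcx3, in line 1 replicate 2. Both libraries of each line were below both WT libraries, but the log2 change of the mus to cas ratio was -0.19 (SE 0.32) in line 1 and -0.33 (SE 0.32) in line 2, both with an adjusted p of 1. Morf4l2 has a close autosomal relative, and the handling of reads that map to several places is unstated, so its share is less certain than the others.

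Wbp5 (Tceal9), a small protein of the TCEAL family of transcription elongation factor relatives, had a mus share of 34.2% and 37.3% in WT, 34.3% and 39.1% for line 1, and 33.6% and 41.6% for line 2. The groups overlapped fully. Armcx3, an outer mitochondrial membrane protein linked to mitochondrial transport, had 36.4% and 47.6%, 27.8% and 55.6%, and 22.4% and 45.6% in the same order, on only 16.5 to 34 allele reads a library. Its spread within a line was larger than any difference between groups. All 3 genes thus had reads assigned to both alleles with Xist present as well as without it. Whether reads of related genes were misassigned to Morf4l2 or Armcx3 was not tested.

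Among the 55 Monoallelic genes, Prdx4, a peroxiredoxin of the endoplasmic reticulum, had the highest share in every group. It was 13.9% and 13% in WT, 12.4% and 15.2% for line 1, and 6.74% and 12% for line 2, so line 2 lay below WT in both libraries without passing the test (adjusted p = 1). At the other end, 8 genes had 0 mus reads in all 6 libraries: Armcx6, Bhlhb9, Fam199x, Tsc22d3, Mid2, Fam120c, Phf8 and 2210013O21Rik. For Phf8, a histone demethylase, 0 of 116 reads in WT, 0 of 134 in line 1 and 0 of 123 in line 2 gave exact intervals that end at 3.13%, 2.72% and 2.95%, and the limit that a count of 0 allows, taken as 3 reads of the total, was 2.59%, 2.24% and 2.44%. For Armcx6, with 28 to 39.5 reads a group, the exact intervals end at 12.3%, 11.6% and 9.03%.

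Over the 55 Monoallelic genes mus reads summed to 1.66% ± 0.031 of allele reads for WT, 1.59% ± 0.435 for line 1 and 1.49% ± 0.424 for line 2 (SD, n = 2). The 7 left-out genes of the same interval and class had 2.24% ± 0.256, 4.52% ± 0.440 and 2.69% ± 0.344. Monoallelic genes before 60 Mb had 2.54%, 2.40% and 2.21%, and those from 60 to 120 Mb had 2.57%, 3.2% and 2.94%, or 2.69%, 2.99% and 3.01% without Msn. The mean over the 55 genes was no higher in either line than in WT. The left-out genes, among them Sh3kbp1, were named with results of these data known, so this contrast was given no test.

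**Figure D2:**
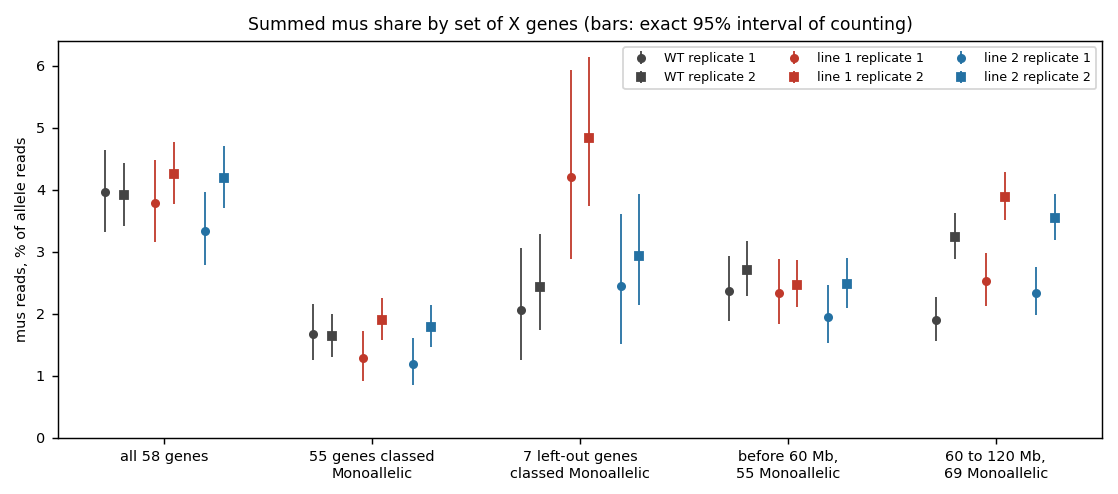
Mus reads as a percentage of allele reads, summed over each set of X genes, with 1 symbol per library and the exact 95% interval of its counting error. The 58 genes and their 55 Monoallelic members overlap between WT and both lines, whereas both line 1 libraries lie above WT in the 7 left-out Monoallelic genes, a set named with results of these data known.

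Single genes moved both ways by a few reads. The pooled share was higher in line 1 than in WT for 23 genes, lower for 22 and equal for 13, and in line 2 it was higher for 20, lower for 27 and equal for 11. It lay within 2 percentage points of WT for 50 genes in line 1 and 49 in line 2. Both line 1 libraries exceeded both WT libraries for 2 genes (Car5b and Hsd17b10), where 8.78% of the table did, and lay below them for 6, where 9.76% did. In line 2 the counts were 3 genes above (Mum1l1, Tsr2 and Ubqln2; 9.76% of the table) and 6 below (10.2%), so the shares of the 58 genes were near those of the table or below them.

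Car5b, a mitochondrial carbonic anhydrase, is singled out after its values were seen because its share differed most upward in line 1. Its mus reads were 0 of 20.5 and 1 of 38.5 in WT, 1.5 of 43 and 9 of 97.5 for line 1, and 0 of 23.5 and 1 of 48 in line 2. The pooled share was 1.69% (exact 95% interval 0.0429% to 9.09%) in WT and 7.47% (3.48% to 12.7%) in line 1, with a log2 change of the ratio of 1.87 (SE 1.36, adjusted p = 1). Its total RNA was 19.7 and 21 CPM in the WT libraries and 30.5 and 40.5 in those of line 1, a log2 change of 0.81 (SE 0.22) that missed the threshold (adjusted p = 0.0574; 0.00617 with replicate number as a block).

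Total RNA asks a wider question than the allele reads, since it counts exon reads from both X chromosomes without splitting them by allele. For each gene these are the reads of its most counted transcript. It was tested in the same 6 libraries over 12910 genes with edgeR's quasi-likelihood test. In line 1, 5 of the 58 genes (8.62%) changed, where 14.3% of all genes did: Amot and Fam120c rose (6.75% of all genes did), and Mid2, Tmem164 and Vegfd fell (7.55%). In line 2, 2 of 58 (3.45%) changed, where 3.58% of all genes did: Srpx2 rose (1.73% of all genes did) and Capn6 fell (1.85%). Both shares were at or below the background, and no gene passed in both lines. Line 2 and line 1 themselves differed in these same 7 genes (12.1%; 12.6% of all genes), 4 of them higher in line 2 (6.87% of all genes) and 3 lower (5.76%). Both comparisons with WT use the same WT libraries. With replicate number as a block, 14 of 58 (24.1%) passed in line 1, where 32.4% of all genes did, 2 (3.45%) in line 2, where 12.1% did, and 16 (27.6%) between the lines, where 27.2% did. The genes that the block added in line 1 were Ammecr1, Car5b, Ctps2, Fgd1, Mum1l1, Nxt2, Pak3, Phka2 and Prps2, with log2 changes from -0.91 for Mum1l1 to 0.81 for Car5b.

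The median log2 fold change over the 58 genes was -0.02 in line 1 and -0.02 in line 2, beside 0.01 and 0.01 over all genes tested. The log2 fold change was within 0.5 of 0 for 46 genes in line 1 and 56 in line 2. These are bulk libraries, in which fewer cells of a type and less RNA per cell cannot be told apart. Line 1 replicate 1 had the lowest CPM of the 6 libraries for 18 of the 58 genes and line 1 replicate 2 for 15, beside 22.7% and 24.2% of all genes.

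**Figure D3:**
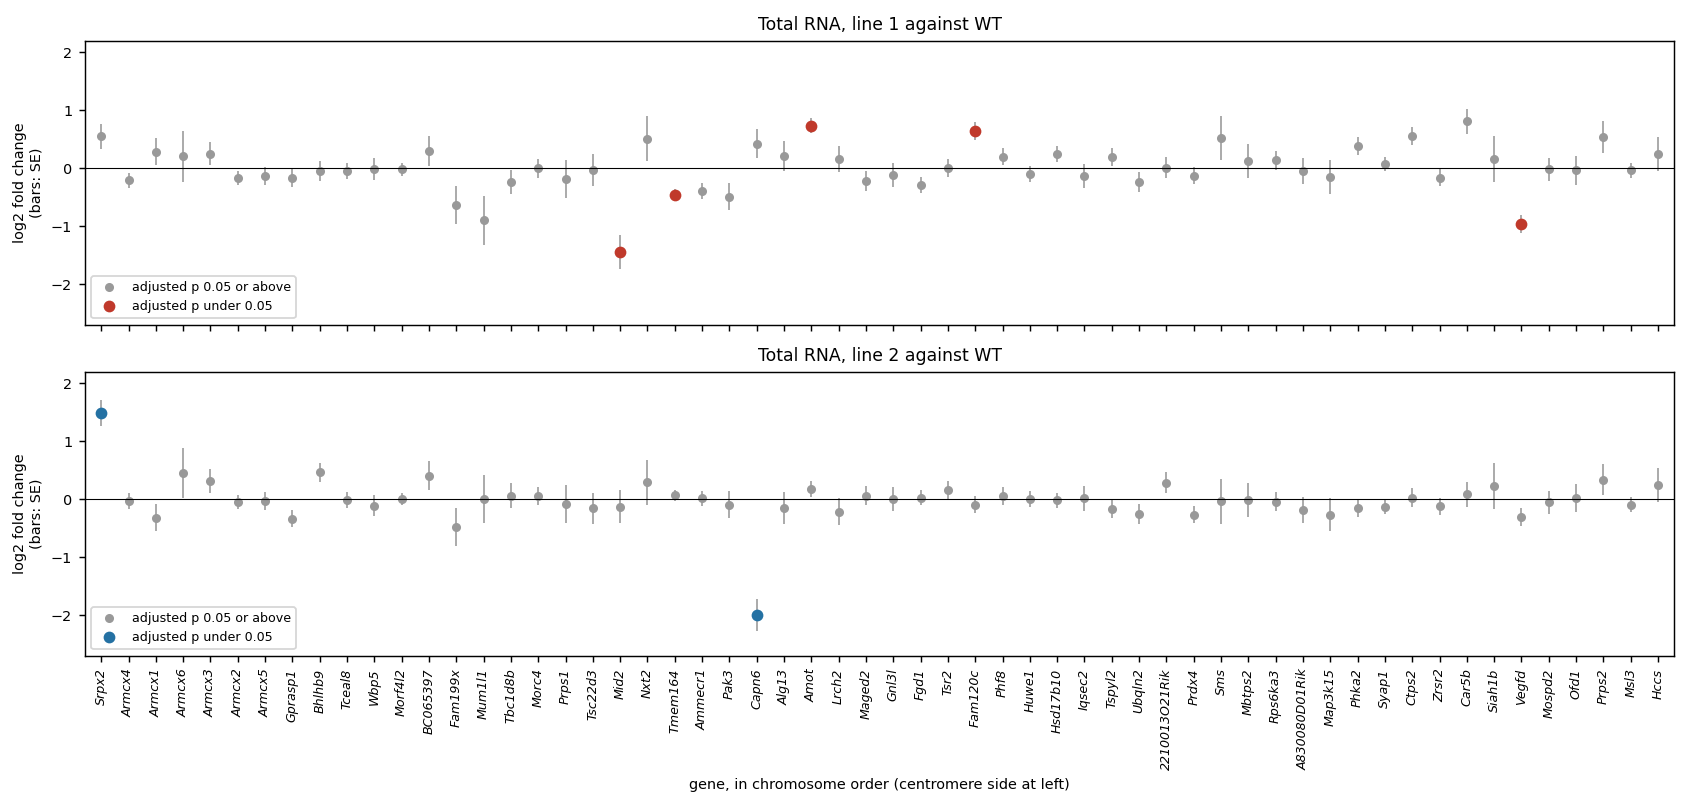
Log2 fold change of total RNA (vertical axis; bars, SE) of the 58 genes in chromosome order, line 1 against WT above and line 2 against WT below, with coloured points for an adjusted p under 0.05. The 5 genes coloured for line 1 and the 2 for line 2 are different genes, and most of the others lie within 0.5 of 0.

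Of 7 genes of the cytoskeleton and of small GTPase control, a group drawn up after the values were seen, 2 changed in line 1 (14.3% of all genes did) and 1 in line 2 (3.58%). Capn6, a calpain without protease activity that binds microtubules, had 107 and 95.4 CPM in the WT libraries, 151 and 121 in those of line 1, and 32.7 and 18.9 in those of line 2. Both line 2 libraries were below all others, a log2 change of -2.0 against WT (SE 0.27, adjusted p = 0.0203) and of -2.42 against line 1 (SE 0.27, adjusted p = 0.00335). Its allele reads followed, with 45.5 and 67.5 in WT, 54.5 and 77.5 for line 1, and 17 and 14 for line 2, of which 1 read in a line 1 library was mus.

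Amot (angiomotin), a junction protein that binds the growth regulator YAP, had 137 and 141 CPM in the WT libraries, 248 and 215 in those of line 1, and 169 and 145 in those of line 2. The line 1 libraries were above all others, a log2 change of 0.73 (SE 0.13, adjusted p = 0.0165), while line 2 differed from WT by 0.18 (SE 0.13, adjusted p = 0.686). Its mus reads numbered 0 and 1.5 in WT and 1 and 1.5 in line 1, of 121.5 to 325 allele reads, so the added reads were cas reads. Mid2, a TRIM family ubiquitin ligase that binds microtubules and is the paralog of Mid1, had 37.9 and 51.0 CPM in the WT libraries, 12.4 and 19.8 in those of line 1, and 34.6 and 46.7 in those of line 2. Its log2 change was -1.44 in line 1 (SE 0.30, adjusted p = 0.0254) and -0.13 in line 2 (SE 0.28, adjusted p = 0.934), and it had no mus read in any library. Fgd1, an activator of the GTPase Cdc42 and the gene of this group with the most reads per length, had log2 changes of -0.29 (adjusted p = 0.223) and 0.03 (adjusted p = 0.978), and with replicate number as a block the line 1 change passed (adjusted p = 0.0297).

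Of 4 secreted proteins and kinases, 1 changed in line 1 (14.3% of all genes) and 1 in line 2 (3.58%). Srpx2, a secreted sushi-repeat protein linked to blood vessel growth and synapse formation, had 37.1 and 46.1 CPM in the WT libraries, 73.8 and 49.5 in those of line 1, and 114 and 121 in those of line 2. Its log2 change was 1.49 in line 2 (SE 0.22, adjusted p = 0.0252) and 0.55 in line 1 (SE 0.22, adjusted p = 0.169), and line 2 exceeded line 1 by 0.94 (adjusted p = 0.0384). Its mus share was 0% and 6.41% in WT, 7.46% and 6.33% for line 1, and 2.83% and 6.22% for line 2, so the groups overlapped while its allele reads went from 14 and 39 in WT to 53 and 96.5 in line 2.

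Vegfd, a ligand of the lymphatic growth factor receptor VEGFR-3, had 39.2 and 39.7 CPM in the WT libraries, 20.8 and 19.8 in those of line 1, and 33.4 and 30.6 in those of line 2. It fell in line 1 by 0.96 on the log2 scale (SE 0.16, adjusted p = 0.0127), and the line 2 change of -0.30 did not pass (SE 0.16, adjusted p = 0.486). Tmem164, a membrane protein, had 193 and 189 CPM in the WT libraries, 139 and 139 in those of line 1, and 200.4 and 200.6 in those of line 2. Its log2 change was -0.46 in line 1 (SE 0.10, adjusted p = 0.0300) and 0.07 in line 2 (adjusted p = 0.880), on 1 mus read in each group. Fam120c, a little characterised gene, had 42.7 and 41.1 CPM in the WT libraries, 60.5 and 70.0 in those of line 1, and 41.9 and 36.9 in those of line 2, a log2 change of 0.64 in line 1 (SE 0.15, adjusted p = 0.0391) with no mus read in any library.

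**Figure D4:**
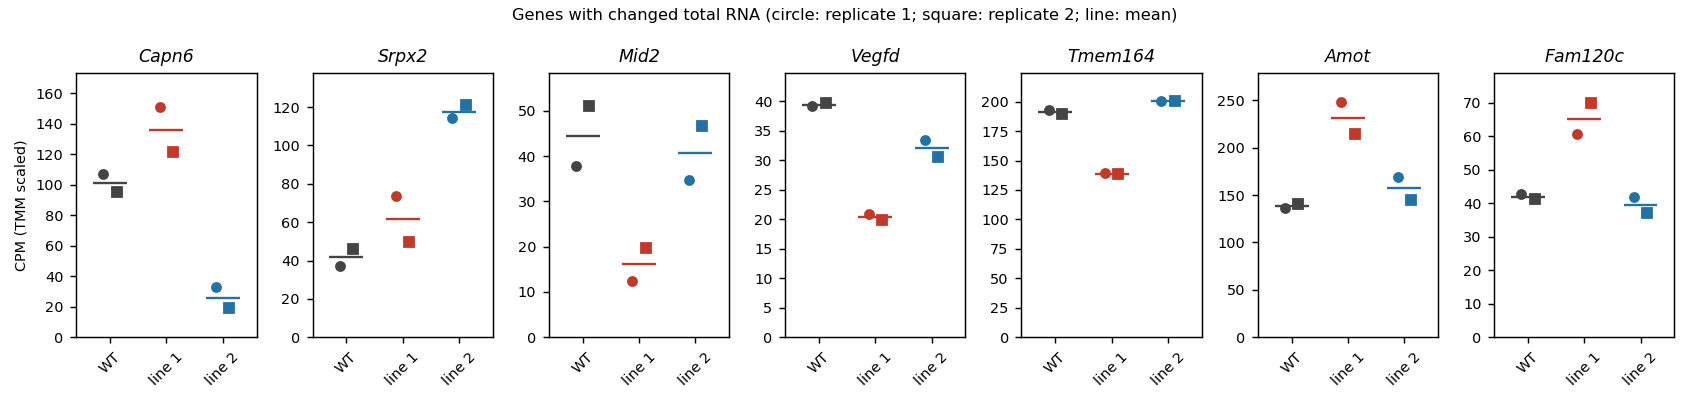
CPM of the 7 genes whose total RNA changed, with a circle for replicate 1, a square for replicate 2 and a line at the mean of each group; each vertical axis starts at 0. Capn6 and Srpx2 stand apart in line 2, and the other 5 genes stand apart in line 1.

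These calls rest on few libraries. Without either WT library none of the 5 genes of line 1 and none of the 2 of line 2 passed the threshold, and without line 2 replicate 2 both line 2 calls were lost. In line 1 the count was 10 without line 1 replicate 1 and 3 without either line 2 library, and in line 2 it was 1 without line 2 replicate 1. Between the lines it was 1 without any single WT or line 2 library. The fold changes kept their direction in each of the 6 fits that leave out 1 library: Capn6 in line 2 ranged from -2.42 to -1.63, Mid2 in line 1 from -1.85 to -1.18, Vegfd from -1.0 to -0.92, Srpx2 in line 2 from 1.35 to 1.66, Amot from 0.62 to 0.83, Fam120c from 0.53 to 0.73 and Tmem164 from -0.47 to -0.44. Their adjusted p in those fits reached 0.104, 0.157, 0.102, 0.169, 0.124, 0.242 and 0.200 in the same order. Between the lines, the Capn6 call alone passed in all 6 fits, with an adjusted p of at most 0.0120.

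The starts of 6 of the changed genes could be read in RefSeq at or near the start used in the allele table. The windows of 250 bases upstream of 5 of them are shown with those of the Biallelic genes Wbp5 and Morf4l2, because they are the genes on which the results above turn and their CpG content differs. They are given 5′ to 3′ on the gene's strand (RefSeq, GRCm38.p6, the same assembly as mm10), with each CG in capitals.
Srpx2: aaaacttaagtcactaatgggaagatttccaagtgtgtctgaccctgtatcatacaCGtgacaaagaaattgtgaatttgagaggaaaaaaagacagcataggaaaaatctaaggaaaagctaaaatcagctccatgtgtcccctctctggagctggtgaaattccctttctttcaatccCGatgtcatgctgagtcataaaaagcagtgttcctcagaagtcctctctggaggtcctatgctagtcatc
Capn6: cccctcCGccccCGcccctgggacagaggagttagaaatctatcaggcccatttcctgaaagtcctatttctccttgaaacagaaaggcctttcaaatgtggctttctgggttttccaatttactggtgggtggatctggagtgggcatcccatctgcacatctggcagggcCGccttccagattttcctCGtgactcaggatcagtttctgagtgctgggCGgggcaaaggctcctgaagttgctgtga
Vegfd: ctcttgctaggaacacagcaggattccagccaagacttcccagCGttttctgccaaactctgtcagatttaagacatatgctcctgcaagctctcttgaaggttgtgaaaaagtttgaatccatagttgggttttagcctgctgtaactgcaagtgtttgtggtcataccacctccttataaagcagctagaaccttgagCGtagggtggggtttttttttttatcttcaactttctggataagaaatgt
Amot: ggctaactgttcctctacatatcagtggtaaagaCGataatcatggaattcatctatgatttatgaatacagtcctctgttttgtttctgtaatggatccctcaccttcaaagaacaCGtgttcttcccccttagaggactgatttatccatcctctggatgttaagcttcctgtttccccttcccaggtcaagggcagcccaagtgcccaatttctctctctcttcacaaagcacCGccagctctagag
Fam120c: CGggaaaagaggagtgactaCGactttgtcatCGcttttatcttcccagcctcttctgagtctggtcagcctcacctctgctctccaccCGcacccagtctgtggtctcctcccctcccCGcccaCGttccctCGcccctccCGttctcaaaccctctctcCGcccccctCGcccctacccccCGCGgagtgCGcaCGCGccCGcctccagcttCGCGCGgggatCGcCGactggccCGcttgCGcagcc
Wbp5: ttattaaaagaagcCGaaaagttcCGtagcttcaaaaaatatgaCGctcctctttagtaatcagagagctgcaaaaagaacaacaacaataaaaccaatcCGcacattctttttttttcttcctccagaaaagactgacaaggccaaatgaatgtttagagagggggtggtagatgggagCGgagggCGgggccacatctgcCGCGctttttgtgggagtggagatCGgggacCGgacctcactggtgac
Morf4l2: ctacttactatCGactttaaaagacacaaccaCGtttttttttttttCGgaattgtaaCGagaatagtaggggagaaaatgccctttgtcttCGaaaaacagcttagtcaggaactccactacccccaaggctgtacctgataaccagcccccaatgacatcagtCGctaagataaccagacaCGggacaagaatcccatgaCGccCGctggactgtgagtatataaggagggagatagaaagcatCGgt
They lie at chrX:133908175-133908424 (+), chrX:143827413-143827662 (-), chrX:164373272-164373521 (+), chrX:145487640-145487889 (-), chrX:151343973-151344222 (+), chrX:136244830-136245079 (+) and chrX:136743687-136743936 (-), in the order printed.

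CG stood 2 times in the windows of Srpx2 and Vegfd, 3 times in Amot, 5 in Capn6, 10 in Wbp5 and Morf4l2, and 23 in Fam120c. Among the 52 of the 58 genes with a window, 48 matched by symbol and 4 by synonym, the median was 12, beside 14 in the 122 other genes of the allele table with a window, 5 over 1223 X promoters and 6 over 32851 promoters. Of the 52 genes, 10 had 5 or fewer CG, and 4 of those 10 are among the 7 genes with changed total RNA. This was seen after the calls and has no test. Tmem164 had 28 CG in a window 326 bases from its start in the table, and the window of Mid2 lies 13.1 kb from it and is not shown. The Biallelic genes Wbp5 and Morf4l2 lay just below the median.

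On either strand, TATAAA stood in 3 of the 52 windows (5.8%; 12.4% of all promoters), 1 of them that of Vegfd, and CCAAT stood in 22 (42.3%; 33.8% of all promoters), among them Capn6, Amot, Wbp5 and Morf4l2. These are matches of letters and say nothing of what binds there.

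Of the other 7 role groups, 5 had no changed gene in either line, and 2 had 1 each in line 1 (Tmem164 and Fam120c). Over all genes 14.3% changed in line 1 and 3.58% in line 2, so 0 or 1 call says little about a group of 4 to 10 genes. These shares stand beside each group count below. The group counts come from the fit without replicate number as a block, and the genes that the block added in line 1 are named above. In the cluster of Armcx, Gprasp, Bhlhb9 and Tceal genes from 134.7 to 136.2 Mb, 0 of 10 passed in either direction, and log2 changes ran from -0.21 to 0.28 in line 1 and from -0.33 to 0.46 in line 2. Wbp5 had the most reads per length of the 58 genes, 91.6 RPKM (reads per kilobase, scaled to library size) as a mean of the 6 libraries, and 79.0 to 111 CPM. Armcx2, next in this cluster with 65.1 RPKM, had 207 to 255 CPM. Gprasp1 and Armcx5 share a start and a strand, so reads of their common exons cannot be told apart, and Armcx genes are near copies in part.

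Chromatin and transcription genes (Morf4l2, Msl3, Phf8, Tspyl2, Tsc22d3, Morc4) had 0 of 6 calls, with log2 changes from -0.03 to 0.20 and from -0.17 to 0.06. Morf4l2 held between 141 and 157 CPM in all 6 libraries (77.0 RPKM). BC065397 lies on its opposite strand with 255 counts against 4834, and whether counting used the strand is not stated. Msl3, the chromodomain subunit of the dosage compensation complex known from flies, had log2 changes of -0.03 and -0.10. Its mus reads were 0 in WT and 1.5 in 1 library of each line.

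RNA processing and ribosome assembly genes had 0 of 5 calls. Gnl3l, a nucleolar GTPase, had 117 to 174 CPM and Tsr2, a chaperone of a ribosomal protein, 64.9 to 86.7, and Tsr2 overlaps Fgd1 on the opposite strand. Metabolic enzymes had 0 of 10 calls, with a median log2 change of 0.32 in line 1 and -0.03 in line 2. With replicate number as a block, Car5b, Ctps2, Phka2 and Prps2 of this group passed in line 1, all higher. Over all genes, 32.4% passed in that fit in either direction. Hsd17b10, a mitochondrial dehydrogenase that is also part of mitochondrial RNase P, had 58.5 to 77.0 CPM and mus reads from 0 to 2.5 a library. The group's largest changes in line 1 were Car5b, above, and Ctps2, a CTP synthase, with 0.56 (SE 0.16, adjusted p = 0.0743; 0.00876 with the block).

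Genes of membrane traffic and organelles had 1 call in 6, Tmem164, and Syap1, with the most reads per length there (34.2 RPKM), had log2 changes of 0.08 and -0.13. Ubiquitin pathway and related genes had 0 of 4 calls. Huwe1, a large HECT ubiquitin ligase and the most counted of the 58 genes, had 933 to 1081 CPM. Its mus share, on 248 to 576 reads a library, was 1.37% and 1.58% in WT, 1.21% and 1.39% for line 1, and 1.40% and 1.33% for line 2, on the most allele reads of any of the 58 genes. Maged2, a MAGE family gene, had 2.90% and 3.42%, 3.69% and 1.82%, and 2.28% and 3.44%, and Siah1b, a RING ubiquitin ligase, had 1.5 mus reads in 1 WT library, 1 in 1 line 2 library and 0 elsewhere. The 6 little characterised genes had 1 call, Fam120c.

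The authors' site lists class accessible sites and BRG1 sites on the X as Monoallelic, Biallelic or XiRestored, the last by its name restored on the inactive X, and were read as coordinates with no score. At or beyond 120 Mb there were 36 XiRestored BRG1 sites and 1 XiRestored accessible site. None lay in the body of any of the 58 genes: 23 of the BRG1 sites and the accessible site lay in left-out genes, and 13 BRG1 sites in neither. Since 5 of the genes left out by name held all 23, this absence was fixed in part by the choice. The nearest restored BRG1 site to a start was 49.7 kb away, at Nxt2.

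Monoallelic sites were common in the 58 genes. A Monoallelic accessible site lay within 1 kb of the start in 38 of 58 genes (65.5%), beside 46.9% of the 147 other genes of the table, and a Monoallelic BRG1 site in 10 (17.2%), beside 9.52%. These shares were given no test. Within gene bodies, 41 of the 58 genes held a Monoallelic accessible site, beside 75 of the 147 other genes. A Monoallelic BRG1 site lay in 21, beside 43 of the 147, with at most 22 in 1 gene, Ammecr1. Gene length was not taken into account. Vegfd held 7 Monoallelic BRG1 sites, 2 of them within 1 kb of its start, Amot 5, Tmem164 4, Mid2 3 and Capn6 2, while Srpx2 and Fam120c held none.

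For the Biallelic genes the site lists and the RNA classes differed. Morf4l2 held 2 accessible sites classed Monoallelic and 2 such BRG1 sites, and Wbp5 held 1 accessible Monoallelic site at its start, while Armcx3 held no listed site. None of the 3 held a Biallelic site, and none of the 5 accessible and 6 BRG1 Biallelic sites at or beyond 120 Mb lay in any of the 58 genes.

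**Figure D5:**
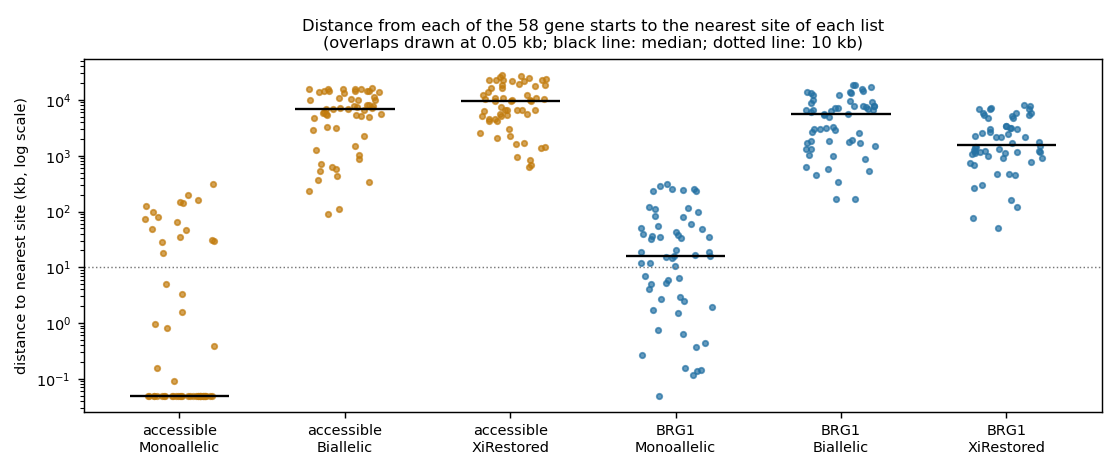
Distance in kb, on a log scale, from the start of each of the 58 genes to the nearest site of each list, with overlaps drawn at 0.05 kb and a black line at the median. Monoallelic accessible sites lie at most starts, whereas no Biallelic or XiRestored site lies within 10 kb of any start.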

How the data were processed

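The authors deposited exon values per RefSeq transcript in expected counts (HOMER, mm10, exons, no normalization, per the file headers) and mus and cas values of X genes in expected counts with steps of 0.5, where 0.5 stands for 0. Tools named in the submitters' processing notes are TopHat2, HOMER, SAMtools, bedtools 2.25.0 and Trim Galore 0.4.1. Allele assignment, use of strand and class calling: not given in the sources used here. RNA was rRNA-depleted and read as pairs with a directional kit, per the labels' protocols.

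Of several transcripts of a symbol, that with the most counts was used (24470 symbols). The design assumed counts; expected counts were rounded, exon values up at 0.5 and allele values down. Total RNA: edgeR 4.0.16 (R 4.3.3), quasi-likelihood, 6 libraries, a mean per group, TMM, filterByExpr, 12910 genes. Mus share: the same test on mus and cas columns with a term per library and the log ratio per group, no TMM, 205 genes. Both used Benjamini-Hochberg adjustment over their table and had 3 residual degrees of freedom, and SE is the fold change over the root of F. CPM are TMM scaled. Both procedures were run on simulated data in which same-numbered libraries shared no deviation. Simulated allele reads had counting error only, so they do not show how small gains fare with spread between libraries. Sites were placed by an overlap of at least 1 base. Alternatives included DESeq2 1.42.0. Same-numbered libraries deviated together (Pearson's r of replicate differences 0.537 to 0.604 over the 3 pairs of groups), a hint from the data, since the labels do not say what a number shares; values with the number as a block stand beside the results they change.

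The members, lists and tests were chosen with earlier results of these data known, and the role groups were drawn up after the values were seen. Named genes were those called, the 2 with the most reads per length in each of 8 lists of an earlier grouping (in which Maged2 stood under chromatin and Capn6 under signalling, and which differs from the role groups of the text), and the 3 with the highest WT mus share on at least 20 reads in each WT library; Armcx3, Car5b, Mum1l1, Ctps2, Msl3, Phf8, Armcx6, Ammecr1 and the genes added by the block were named after their values were seen.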

Additional observations from a re-analysis of the deposited data

Results flagged for a closer look

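In 7 genes the effect of the 2 deleted lines on total RNA differed by a test of line 2 against line 1 (edgeR quasi-likelihood, adjusted p under 0.05). The log2 difference, line 2 minus line 1, was -2.42 for Capn6, 0.94 for Srpx2, 1.31 for Mid2, 0.66 for Vegfd, 0.53 for Tmem164, -0.56 for Amot and -0.73 for Fam120c. Since 12.6% of all genes differed between the lines, the 7 of 58 are close to the background. In each of the 7 the change against WT passed in 1 line only.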

How the results depend on the processing

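No call of a changed mus share arose among the 58 genes under any alternative run: 0 with at least 40 allele reads, no minimum, 0.5 rounded up, a replicate block, or any library left out. Total RNA calls in line 1 were 5, 14 with a replicate block, 3 with only the compared groups, and 0 to 10 with 1 library left out; in line 2 they were 2, and 0 to 2 with 1 library left out; between the lines 7, 16 with a replicate block, 1 with only the compared groups, and 1 to 9 with 1 library left out. Over all genes the replicate block gave 4182 calls for 1846, 1568 for 462 and 3506 for 1630. Numbers are not said to pair libraries and replicate 1 is the shallower in every group, and the block changed no call of mus share among the 58 genes. Over all genes line 2 had 948 calls for 462 without a filter on low counts and 790 with only the compared groups; with 1 library left out the counts ran from 718 to 2361 in line 1, 23 to 783 in line 2 and 600 to 1991 between the lines.

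Leaving out 1 library moved the median log2 change over the 58 genes between -0.0579 and 0.072 in line 1 and between -0.062 and 0.0175 in line 2. A median mus share over genes with at least 10 allele reads was taken in each library and averaged per group. It was 0.505%, 0.517% and 0.678% in WT, line 1 and line 2. With a group's libraries pooled, the median over the 58 genes was 1.05%, 0.858% and 1.08% in the same order. The summed share was 4.16% in WT without the gene with the most reads. With 0.5 kept as 0.5 the sum gave 4.27% in WT and 4.36% in line 1. Leaving out a library gave sums of 3.91% to 3.96%, 3.78% to 4.25% and 3.34% to 4.19% in WT, line 1 and line 2. The cause of these moves was not tested. A tally of single values covered only the genes named by rule, in the 3 comparisons. Of their calls for total RNA, 14 were kept with the replicate block, 12 with DESeq2 and 6 with only the compared groups. DESeq2 lost 2 and the compared groups alone lost 8. The block gave 2 new calls among these named genes, and further ones among the other genes of the 58. In no alternative did a called value of a named gene turn sign. Arms left with 1 library borrow the spread of the other groups. Few mus reads per gene and 2 libraries a group limit the precision, and p-values measure the spread between these libraries.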
